A study of Mus musculus with 6 samples.

Results

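The laminin chain genes form a family of 9 members in the deposited table, Lama1, Lama2, Lama3, Lama4, Lama5, Lamb1, Lamb2, Lamb3 and Lamc1, out of 23951 genes. They were described across 3 mouse melanoma lines because Lamb1 was far below its B16-F1 level in B16-F1R2, so the family was chosen by this difference, which is given below as a description with no test. Of the 9 genes, 5 reached at least 1 FPKM (fragments per transcript kilobase per 1000000 reads mapped) in at least 2 libraries and were among the 11379 genes compared between lines. Polyadenylated RNA of untreated cultures was sequenced in 2 libraries per line. B16-F1 is labelled as a line of low metastatic potential and was obtained from the American Type Culture Collection. B16-F1R2 came from a metastasis in a lymph node, and B16-F1R2L from a lung metastasis that itself derived from one in a lymph node. Both metastatic lines were supplied by a laboratory in Zurich, so supplier and line cannot be told apart in a comparison with B16-F1. Whether separate cultures gave the libraries of a line is not stated, so the p-values below measure only the spread between these libraries.

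Laminins are large glycoproteins of basement membranes, each assembled inside the cell from an alpha, a beta and a gamma chain that wind into a coiled coil. Many laminins polymerise into a sheet through the short arms of their chains. The alpha chain carries the globular domains that bind integrins, dystroglycan and other receptors at the cell surface. Nidogen and perlecan tie the laminin sheet to the network of type IV collagen. Lamb1 and Lamb2 encode alternative beta chains that assemble with the widely used gamma chain Lamc1, and melanoma cells are known to secrete laminins whose alpha chain is Lama4 or Lama5.

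The beta chains resemble each other in sequence, which matters for how reads of 50 bases are assigned when 2 mismatches are allowed in the alignment. In the NCBIM37 assembly, which mm9 names, Lamb1 lies on the plus strand of chr12:31950099-32014509 with a longest annotated transcript of 5784 bases in 33 exons, and Lamb2 on the plus strand of chr9:108382193-108392861 with a transcript of 5624 bases in 33 exons. Their most alike coding stretches of 50 bases are shown to make the size of the likeness visible. The Lamb1 stretch lies in exon 4 at chr12:31957306-31957355 and the Lamb2 stretch in exon 5 at chr9:108383098-108383147, both read 5′ to 3′ on the plus strand, and capitals mark the 6 bases at which they differ.
Lamb1: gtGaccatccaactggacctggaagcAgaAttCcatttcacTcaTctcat
Lamb2: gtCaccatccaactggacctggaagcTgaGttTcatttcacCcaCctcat
Lama4 (chr10:38685321-38829994, plus strand) and Lama5 (chr2:179911078-179960564, minus strand), the alpha chains with measurable RNA, differed at 9 of 50 bases in their most alike coding stretch. These stretches cross an exon junction in each gene, from exon 18 to exon 19 of Lama4 between chr10:38789866-38792535 and from exon 60 to exon 61 of Lama5 between chr2:179915960-179916089, each written 5′ to 3′ on its gene's own strand with the differing bases in capitals.
Lama4: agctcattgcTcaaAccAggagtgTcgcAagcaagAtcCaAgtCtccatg
Lama5: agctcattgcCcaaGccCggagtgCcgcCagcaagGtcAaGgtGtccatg
Across the longest Lamb1 transcript, 0 of 5735 stretches of 50 bases lay within 2 mismatches of a protein-coding transcript of another gene, and the same count was 0 for each of the other 8 chains. No exon of the 9 chain genes overlapped an exon of another annotated gene.

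Lamb1, which encodes the beta chain of the laminins of early basement membranes, had 10.4 and 10.4 FPKM in the B16-F1 libraries, 0.571 and 0.557 in the B16-F1R2 libraries, and 0.382 and 0.256 in the B16-F1R2L libraries. Both B16-F1 libraries were far above the other 4, and the libraries of the 3 lines did not overlap. The B16-F1R2 mean was 5.44% of the B16-F1 mean, and single B16-F1 libraries were 18.1 to 18.6 times as high as single B16-F1R2 libraries. The B16-F1R2L mean was 3.08% of that of B16-F1, with ratios of single libraries between 27.1 and 40.6. On the log2(FPKM + 0.1) scale, which understates changes of low genes, the difference was -3.98 ± 0.19 (SE) for B16-F1R2 against B16-F1 and -4.66 ± 0.19 for B16-F1R2L against B16-F1. Ordered from the most negative difference among the 11379 genes, Lamb1 stood at place 49 in the first of these comparisons and at place 36 in the second.

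**Figure D1:**
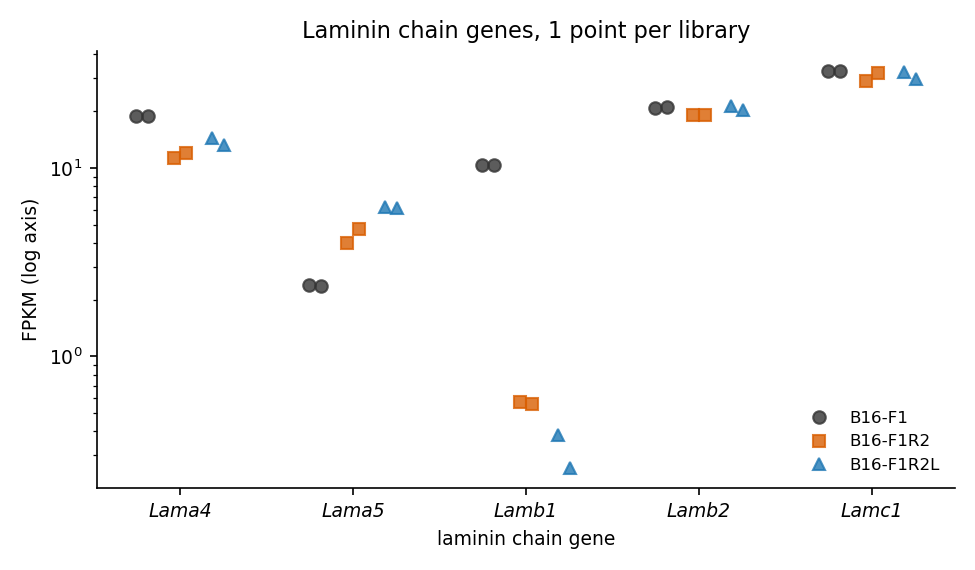
FPKM of the 5 measurable laminin chain genes on a log axis, with 1 point per library and 2 libraries each of B16-F1 (circles), B16-F1R2 (squares) and B16-F1R2L (triangles). Lamb1 sits at 10.4 FPKM in both B16-F1 libraries and at or below 0.571 in the other 4, while Lamb2 and Lamc1 stay near one level across the lines.

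The RNA that remained was a small number of reads. Judged by the smallest FPKM among genes annotated with a single transcript, the depth was about 12600000 to 14700000 reads per library, and 1 read on Lamb1 was then worth 0.0118 to 0.0137 FPKM. By this estimate Lamb1 held 793 and 760 reads in the B16-F1 libraries, 45 and 46 in those of B16-F1R2 and 29 and 22 in those of B16-F1R2L. The gene was therefore detected in every library. Between B16-F1R2 and B16-F1R2L the ratio of means was 1.77, with single libraries from 1.46 to 2.23, and the log2 difference of -0.68 ± 0.19 is given without a test, since its B16-F1R2 libraries are those that chose the gene. These are bulk libraries, in which fewer cells with Lamb1 RNA and less Lamb1 RNA per cell cannot be told apart.

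Lamb2, the other beta chain and the one typical of neuromuscular and kidney basement membranes, had 20.9 and 21.2 FPKM in the B16-F1 libraries, 19.1 and 19.1 in those of B16-F1R2 and 21.3 and 20.3 in those of B16-F1R2L. The B16-F1R2 libraries lay just below those of B16-F1, and the libraries of B16-F1 and B16-F1R2L overlapped. Its log2 difference was -0.14 ± 0.05 for B16-F1R2 against B16-F1, described without a test like those of all members in that comparison. It did not pass the threshold in B16-F1R2L against B16-F1R2, where the log2 difference was 0.12 ± 0.05 with a limma adjusted p of 0.125. After the FPKM of each library were rescaled to a sum of 1000000 it passed there, at 0.23 with a limma adjusted p of 0.036, where the median log2 difference of all tested genes was 0.13. Against B16-F1 the difference of B16-F1R2L was -0.02 ± 0.05 (limma adjusted p = 0.812). The third beta chain, Lamb3, part of the laminin that anchors epidermis to dermis, was listed at 0 in all 6 libraries.

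Because FPKM are scaled by transcript length, the beta chains can be set beside each other. Lamb1 made up 33.0% ± 0.160 (SD, n = 2) of the summed beta chain FPKM in B16-F1, while its share was 2.87% ± 0.0475 for B16-F1R2 and 1.5% ± 0.361 for B16-F1R2L. The summed beta chain FPKM was 31.4 ± 0.228 for B16-F1, 19.7 ± 0.00387 for B16-F1R2 and 21.1 ± 0.843 for B16-F1R2L. Lamb2 was thus nearly the whole of the beta chain RNA in the metastatic lines, at about its B16-F1 level.

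Lamc1, the gamma chain of most laminins, was the highest of the family with 32.8 and 32.6 FPKM in the B16-F1 libraries, 28.8 and 31.9 in those of B16-F1R2 and 32.2 and 29.6 in those of B16-F1R2L. The libraries of B16-F1R2 and B16-F1R2L overlapped, and those of B16-F1 lay slightly above both. The log2 difference was -0.11 ± 0.07 for B16-F1R2 against B16-F1, again without a test. Neither tested comparison passed, with 0.03 ± 0.07 for B16-F1R2L against B16-F1R2 (limma adjusted p = 0.798) and -0.08 ± 0.07 for B16-F1R2L against B16-F1 (limma adjusted p = 0.324). Beta chain FPKM per Lamc1 FPKM was 0.960 ± 0.0120 (SD, n = 2) for B16-F1, 0.650 ± 0.0472 for B16-F1R2 and 0.684 ± 0.0125 for B16-F1R2L.

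**Figure D2:**
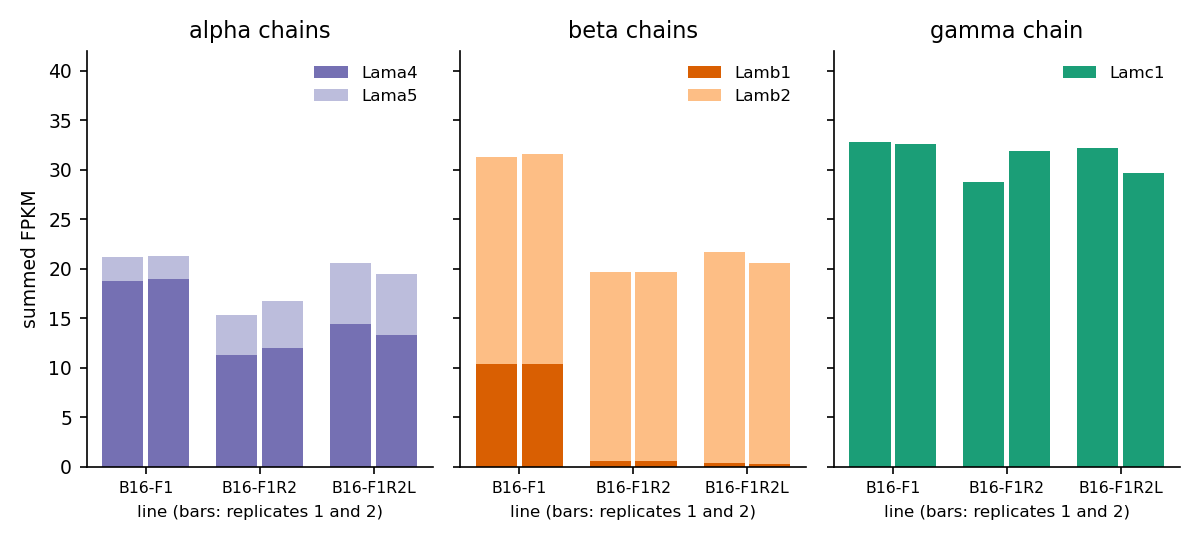
Stacked FPKM of the measurable alpha, beta and gamma chains, with 1 bar per library and replicates 1 and 2 side by side for each line. The Lamb1 part of the beta bars is 33.0% in B16-F1 and nearly vanishes in B16-F1R2 and B16-F1R2L, while the Lama5 part of the alpha bars widens from 11.2% to 27.2% and 30.8%.

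The alpha chains with measurable RNA went in opposite directions relative to B16-F1. Lama4, the short alpha chain found in vessel walls and fat, had 18.8 and 18.9 FPKM in the B16-F1 libraries, 11.3 and 12.0 in those of B16-F1R2 and 14.4 and 13.3 in those of B16-F1R2L. No line's libraries overlapped another's, and B16-F1R2 was lowest. The B16-F1R2 mean was 61.8% of that of B16-F1, a log2 difference of -0.69 ± 0.06 described without a test. B16-F1R2L was below B16-F1 for Lama4, with a log2 difference of -0.44 ± 0.06 (limma adjusted p = 0.00142), a comparison that shares the B16-F1 libraries with the one that chose the family.

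Lama5, the long alpha chain of many adult basement membranes, had 2.39 and 2.37 FPKM in the B16-F1 libraries, 4.0 and 4.76 in those of B16-F1R2 and 6.18 and 6.14 in those of B16-F1R2L. The lines stood in that order without overlap. The B16-F1R2 mean was 184% of the B16-F1 mean, a log2 difference of 0.85 ± 0.11 described without a test. In B16-F1R2L the gene was higher than in B16-F1 by 1.34 ± 0.11 on the log2 scale (limma adjusted p = 0.000128), or 259% of the B16-F1 mean. Lama5 held 11.2% ± 0.139 (SD, n = 2) of alpha chain FPKM for B16-F1, 27.2% ± 1.69 for B16-F1R2 and 30.8% ± 1.09 for B16-F1R2L. The summed alpha chain FPKM was 21.2 ± 0.104, 16.1 ± 0.992 and 20.0 ± 0.800 in the same order of lines.

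In B16-F1R2L against B16-F1, 1 of the 4 tested chains other than Lamb1 was called higher and 1 lower, where 29.5% and 27.1% of all tested genes were called in these directions. In B16-F1R2L against B16-F1R2, 2 of the 4 were called higher and 0 lower, beside 12.1% and 10.5% of all tested genes, and at an unadjusted p under 0.05 limma likewise placed 0 of the 4 lower. The 2 were Lama4, with a log2 difference of 0.25 ± 0.06 (limma adjusted p = 0.0384), and Lama5, with 0.49 ± 0.11 (limma adjusted p = 0.0259). The comparison shares the B16-F1R2 libraries with the one that chose the family, and both calls depended on the settings. Over 15 alternative settings the adjusted p of Lama4 reached 0.168 and the call was lost in 11, among them the omission of any single library, and that of Lama5 reached 0.106 with the call lost in 7, among them the omission of any single library other than B16-F1R2 replicate 2. Rescaling each library to the same FPKM sum moved the median log2 difference of all tested genes in this comparison from 0.02 to 0.13 and the share of calls that were higher from 53.7% to 81.0%. In B16-F1R2L against B16-F1 the same rescaling moved the median from 0.02 to 0.12 and the higher share of calls from 52.1% to 66.6%.

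**Figure D3:**
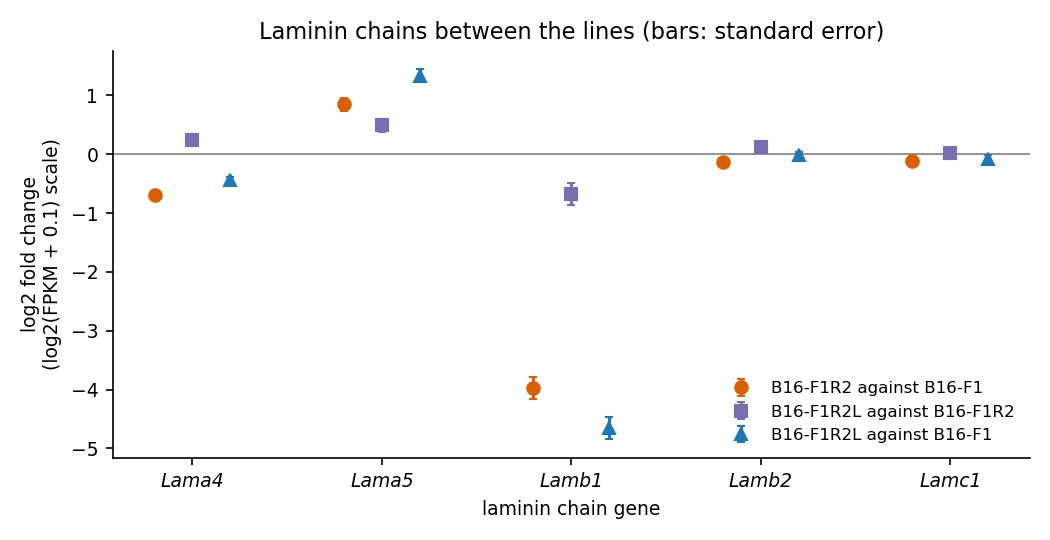
Log2 fold changes of the 5 measurable chains on the log2(FPKM + 0.1) scale in the 3 comparisons of lines, with bars for the standard error. Lamb1 lies at -3.98 and -4.66 in the comparisons with B16-F1, Lama4 below 0 and Lama5 above 0 in both, and Lamb2 and Lamc1 close to 0.

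The other alpha chains were at or near the level of single reads. Lama1, the alpha chain of the embryo's first laminin, was listed at 0 in all 6 libraries. Lama2, the alpha chain of muscle and nerve laminin, had 0.00725 and 0 FPKM in the B16-F1 libraries, 0.0289 and 0.0404 in those of B16-F1R2 and 0.0219 and 0.0193 in those of B16-F1R2L, an estimated 0 to 6 reads per library. Lama3, the epidermal alpha chain, had 0.0145 and 0.00756 FPKM in the B16-F1 libraries, 0.0360 and 0.0203 in those of B16-F1R2 and 0.00722 and 0 in those of B16-F1R2L, an estimated 0 to 5 reads. No difference between lines could be measured for these genes at this depth. Within each line, the measurable chains ran in the order Lamc1, Lamb2 and Lama4 from the top, followed by Lamb1 and then Lama5 in B16-F1 and by Lama5 and then Lamb1 in the other lines, and the libraries of neighbours in this order did not overlap.

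The lines were checked against marker genes. All 8 melanocyte markers were above 0 in every line, and their summed FPKM was 14972 to 15009 for B16-F1, 7909 to 8125 for B16-F1R2 and 8924 to 8934 for B16-F1R2L. Fibroblast markers summed to 1.14 to 1.33, 22.3 to 23.1 and 9.83 to 10.9 FPKM in the same order, with 4, 5 and 5 of 8 above 0 and Dcn, Lum and Thy1 listed at 0 throughout. Endothelial markers summed to 0.0875 to 0.144, 1.87 to 2.08 and 2.80 to 3.41 FPKM, with 1, 2 and 2 of 6 above 0 and Cdh5, Kdr, Tek and Tie1 listed at 0 throughout. Leukocyte markers summed to 1.02 to 1.82, 13.8 to 14.3 and 18.2 to 18.7 FPKM, with 2, 4 and 3 of 7 above 0 and Ptprc, Cd3e and Itgam listed at 0 throughout. Cd79a carried the difference in that sum, with 0 and 0.0593 FPKM in the B16-F1 libraries, 12.7 and 12.4 in those of B16-F1R2 and 17.1 and 15.9 in those of B16-F1R2L, while Cd68 had 1.02 to 1.76, 0.983 to 1.89 and 1.08 to 2.67 FPKM. Schwann cell markers summed to 101 to 102, 567 to 571 and 584 to 593 FPKM, with 4 of 5 above 0 in each line and Gap43 listed at 0 throughout, and epithelial markers stayed between 0.383 and 0.662. The part of these marker differences in the laminin values was not tested.

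Receptors for laminin were examined next, from a list of integrin chains, dystroglycan, syndecans and other binding proteins. Of 19 in the table, 15 were tested, and in B16-F1R2 against B16-F1 the limma fit called 5 higher and 6 lower, or 33.3% and 40%, beside 28.2% and 27.2% of all tested genes. The median log2 difference of the 15 was -0.02, against 0.005 over all tested genes. One of those called higher, Itga7, passed the filter on low values through the metastatic lines alone, and without it 4 of 14 were called higher and 6 lower.

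Itga6, the integrin alpha chain of the main laminin receptors, had 19.1 and 18.2 FPKM in the B16-F1 libraries, 30.0 and 31.0 in those of B16-F1R2 and 29.1 and 28.9 in those of B16-F1R2L. It rose in B16-F1R2 by 0.71 ± 0.05 on the log2 scale (limma adjusted p = 7.34e-05). Its partner Itgb1, the beta chain of most matrix integrins, had between 190.1 and 205.5 FPKM in all libraries, with a log2 difference of -0.01 ± 0.04 (limma adjusted p = 0.892). Itga3, the other alpha chain with a preference for laminins of the Lama5 kind, was too low to be tested and had 0.297 and 0.526 FPKM in the B16-F1 libraries, 0.0740 and 0.121 in those of B16-F1R2 and 0.0364 and 0.0310 in those of B16-F1R2L. Its B16-F1 libraries lay above the others.

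Itga7, the laminin-binding integrin alpha chain best known from muscle, had 0.156 and 0.0931 FPKM in the B16-F1 libraries, 1.22 and 1.09 in those of B16-F1R2 and 1.23 and 1.27 in those of B16-F1R2L. Its log2 difference between B16-F1R2 and B16-F1 was 2.49 ± 0.24, described without a test because the gene passed the filter only where it is high, and ranged from 0.94 to 3.15 with the pseudocount. Bcam, the Lutheran glycoprotein and a receptor for Lama5, had 2.03 and 2.21 FPKM in the B16-F1 libraries, 9.44 and 9.46 in those of B16-F1R2 and 11.6 and 8.57 in those of B16-F1R2L. The log2 difference of B16-F1R2 against B16-F1 was 2.10 ± 0.14 (limma adjusted p = 6.64e-05). Sdc4, a heparan sulphate proteoglycan of focal adhesions, rose by 0.85 ± 0.06 (limma adjusted p = 8.27e-05).

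Dag1, which encodes dystroglycan, the receptor that binds laminin globular domains through its sugar chains, had 89.7 and 88.4 FPKM in the B16-F1 libraries, 74.2 and 78.4 in those of B16-F1R2 and 89.8 and 86.6 in those of B16-F1R2L. B16-F1R2 was below both other lines, which overlapped. Dag1 fell by 0.22 ± 0.05 on the log2 scale in B16-F1R2 against B16-F1 (limma adjusted p = 0.00645). In B16-F1R2L against B16-F1R2 it was 0.21 ± 0.05 higher (limma adjusted p = 0.0252), a call lost in 7 of 15 alternatives.

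In B16-F1R2L against B16-F1R2, 4 of the 15 tested receptors were called higher and 1 lower (26.7% and 6.67%, beside 12.1% and 10.5% of all tested genes), with a median log2 difference of 0.08 against 0.02 over all tested genes. Itga9, an integrin alpha chain best known as a receptor for tenascin, had 5.59 and 5.41 FPKM in the B16-F1R2 libraries against 9.39 and 9.72 in those of B16-F1R2L, a rise of 0.79 ± 0.07 (limma adjusted p = 0.00313). Itgb3, the beta chain of the vitronectin receptor, had 2.52 and 2.65 FPKM in the B16-F1R2 libraries against 4.18 and 4.88 in those of B16-F1R2L, a rise of 0.78 ± 0.12 (limma adjusted p = 0.0101) that was lost without B16-F1R2 replicate 1 or without B16-F1R2L replicate 2, with an adjusted p of at most 0.0644. The syndecans Sdc3, with 0.22 ± 0.06 (limma adjusted p = 0.0384), and Sdc1, with -0.25 ± 0.06 (limma adjusted p = 0.0272), lost their calls in 9 and 8 of 15 alternatives.

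**Figure D4:**
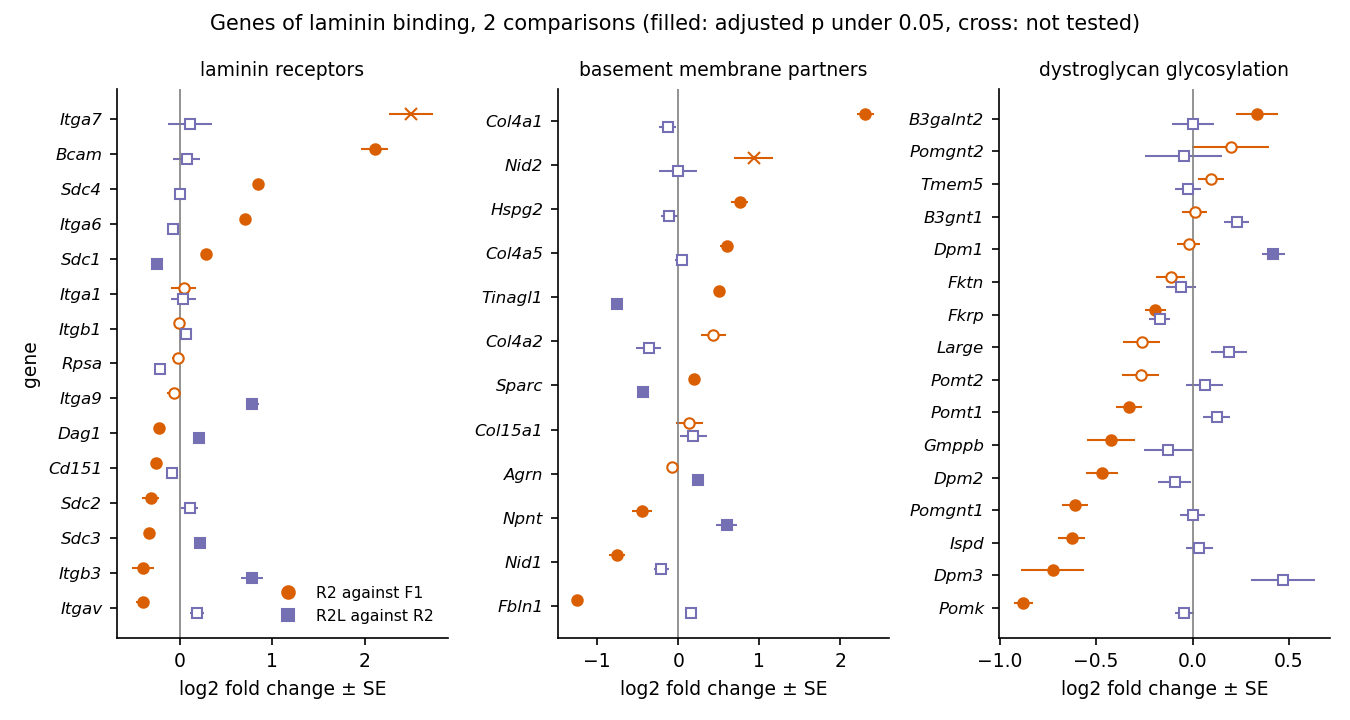
Log2 fold changes with standard errors of the tested laminin receptors, basement membrane partners and dystroglycan glycosylation genes, in B16-F1R2 against B16-F1 (circles) and B16-F1R2L against B16-F1R2 (squares), filled where the limma adjusted p is under 0.05. Crosses mark Itga7 and Nid2 in the first comparison, given with no test. In that comparison Itga7, Bcam and Col4a1 lie above 2, Fbln1 lies at -1.25, and the glycosylation genes lie mostly below 0.

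Laminin's partners in the basement membrane were the second group. Of 23 in the table, 12 were tested, and 6 were called higher (50%) and 3 lower (25.0%) in B16-F1R2 against B16-F1, beside 28.2% and 27.2% of all tested genes, with a median log2 difference of 0.31 against 0.005 over all tested genes. Without Nid2, which passed the filter on low values through the metastatic lines alone, 5 of 11 were called higher and 3 lower. Col4a1, a chain of the type IV collagen network, had 2.40 and 1.96 FPKM in the B16-F1 libraries, 11.1 and 11.2 in those of B16-F1R2 and 10.2 and 10.1 in those of B16-F1R2L, a rise of 2.31 ± 0.10 in B16-F1R2 (limma adjusted p = 1.19e-05). Hspg2, which encodes perlecan, had 15.1 and 14.9 FPKM in the B16-F1 libraries, 23.7 and 27.3 in those of B16-F1R2 and 25.8 and 21.4 in those of B16-F1R2L, a rise of 0.76 ± 0.10 (limma adjusted p = 0.0013). Both metastatic lines lay above B16-F1 for these genes.

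The nidogens link laminin gamma chains to type IV collagen. Nid1 had 4.82 and 4.90 FPKM in the B16-F1 libraries, 2.74 and 2.93 in those of B16-F1R2 and 2.43 and 2.43 in those of B16-F1R2L, with a log2 difference of -0.76 ± 0.09 in B16-F1R2 (limma adjusted p = 0.000826). Nid2 had 0.678 and 0.533 FPKM in the B16-F1 libraries, 1.17 and 1.31 in those of B16-F1R2 and 1.49 and 1.02 in those of B16-F1R2L, a log2 difference of 0.93 ± 0.24 in B16-F1R2, given without a test because the gene passed the filter only through the metastatic lines. Fbln1, a fibulin that binds laminin and nidogen, had 49.5 and 47.7 FPKM in the B16-F1 libraries, 20.6 and 20.0 in those of B16-F1R2 and 22.2 and 23.0 in those of B16-F1R2L, with a log2 difference of -1.25 ± 0.05 in B16-F1R2 (limma adjusted p = 6.95e-06).

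In B16-F1R2L against B16-F1R2, 2 of the 12 partners were called higher and 2 lower (16.7% each, beside 12.1% and 10.5% of all tested genes), with a median of -0.06 against 0.02 over all tested genes. Tinagl1, a matricellular protein of basement membranes, fell from 24.9 and 23.8 FPKM to 15.1 and 13.5, with a log2 difference of -0.76 ± 0.07 (limma adjusted p = 0.0027). Sparc, a collagen-binding matricellular protein, fell from 393 and 395 FPKM to 300.3 and 281, with -0.44 ± 0.05 (limma adjusted p = 0.00427). Npnt, a ligand of integrins in embryonic basement membranes, was higher by 0.60 ± 0.13 (limma adjusted p = 0.0236) and Agrn, the proteoglycan agrin, by 0.24 ± 0.06 (limma adjusted p = 0.0293), calls that were lost in 5 of 14 and 7 of 15 alternatives.

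The third group holds genes that build the laminin-binding sugar chains of dystroglycan or supply their donors. All 16 in the table were tested, and 8 were called lower (50%) and 1 higher (6.25%) in B16-F1R2 against B16-F1, beside 27.2% and 28.2% of all tested genes, with a median log2 difference of -0.27 against 0.005 over all tested genes. Pomk, the kinase that phosphorylates the core mannose, had 31.8 and 32.9 FPKM in the B16-F1 libraries, 17.6 and 17.5 in those of B16-F1R2 and 17.3 and 16.7 in those of B16-F1R2L, a log2 difference of -0.88 ± 0.05 in B16-F1R2 (limma adjusted p = 3.02e-05). Pomgnt1, a transferase that extends the mannose, fell by 0.61 ± 0.07 (limma adjusted p = 0.000451), and Ispd, which makes the donor of ribitol phosphate, fell by 0.63 ± 0.07 (limma adjusted p = 0.000533). Dpm3, a subunit of dolichol phosphate mannose synthase, fell by 0.73 ± 0.16 (limma adjusted p = 0.00999), a call lost without B16-F1 replicate 1 or B16-F1R2 replicate 2, with an adjusted p of at most 0.0639. Without B16-F1 replicate 2 the count of calls in this group was 5 in place of 9.

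In B16-F1R2L against B16-F1R2 the limma fit called 1 of these 16 genes higher and 0 lower, beside 12.1% and 10.5% of all tested genes, and at an unadjusted p under 0.05 it placed 3 higher and 1 lower. The gene called was Dpm1, the catalytic subunit of the same synthase, with 15.2 and 14.5 FPKM in the B16-F1R2 libraries against 19.2 and 20.6 in those of B16-F1R2L, a rise of 0.42 ± 0.06 (limma adjusted p = 0.00867). For the genes named above as lower in B16-F1R2, Pomk, Pomgnt1 and Ispd had log2 differences of -0.04, 0.0007 and 0.04 in this comparison, and none of the 3 passed. Dpm3 had 0.47 ± 0.16 (limma adjusted p = 0.0871), which passed in 3 of 15 alternatives, the replicate block among them, with adjusted p from 0.0222 to 0.288.

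The genes nearest to Lamb1 on chromosome 12 were also compared. Lamb1 was chosen for its fall, so that its neighbours had less negative differences was close to fixed in advance. The tested genes nearest to Lamb1 were taken at 5 per side, spread over chr12:29360096-32622495. Of these, 4 were called higher and 2 lower in B16-F1R2 against B16-F1, beside 28.2% and 27.2% of all tested genes. The median log2 difference of the 10 was 0.10. Dld, a subunit of mitochondrial dehydrogenase complexes whose gene lies 1.9 kb beyond the end of Lamb1 on the opposite strand, had 65.4 and 61.8 FPKM in the B16-F1 libraries against 74.2 and 73.8 in those of B16-F1R2, a log2 difference of 0.22 ± 0.04 (limma adjusted p = 0.00652). Bcap29 and Dus4l, 265.7 and 310.4 kb away, had log2 differences of 0.85 ± 0.06 (limma adjusted p = 8.9e-05) and 0.83 ± 0.14 (limma adjusted p = 0.00309). The most negative of the 10 was Adi1, an enzyme of methionine salvage 2583.1 kb away, with -0.99 ± 0.05 (limma adjusted p = 1.93e-05).

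**Figure D5:**
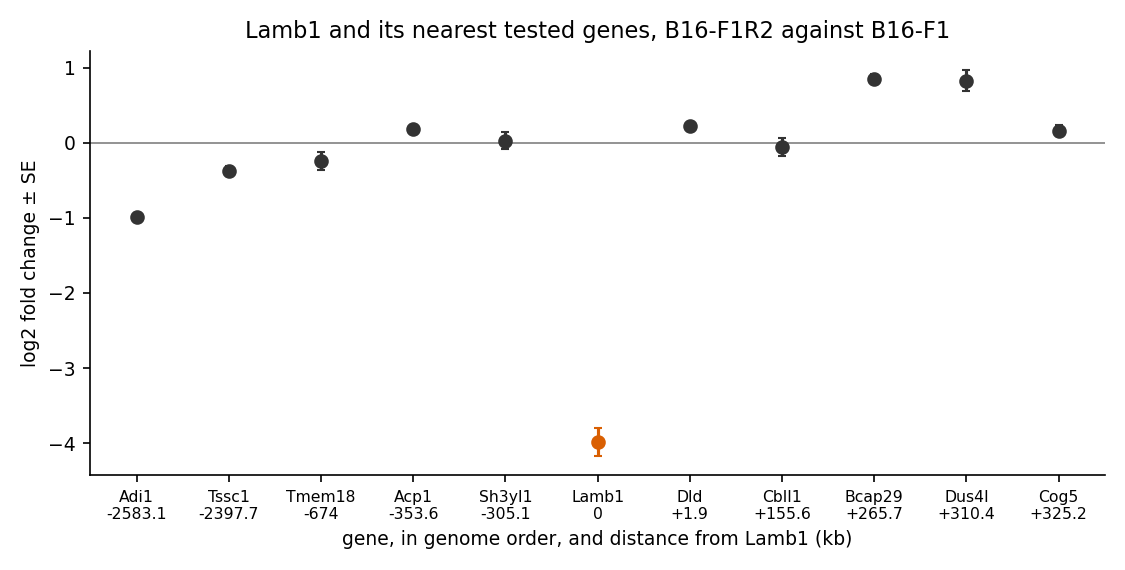
Log2 fold changes with standard errors in B16-F1R2 against B16-F1 for Lamb1 and its nearest tested genes, 5 per side in genome order and evenly spaced, with the distance from Lamb1 in kb under each name. Lamb1 lies at -3.98, and its 10 neighbours lie between -0.99 and 0.85.

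Genes whose levels followed a pattern like that of Lamb1 were sought by the root mean square difference of log2(FPKM + 0.1) values, each centred on the gene's mean over the 6 libraries. The nearest 5 were Krba1 at 0.32, Nsd1 at 0.35, Hebp1 at 0.35, Fzd9 at 0.37 and Fam115c at 0.38. They had lower levels than Lamb1, from 1.23 to 2.81 FPKM in B16-F1, and all of them apart from Nsd1 were listed at 0 in the B16-F1R2 and B16-F1R2L libraries. For the genes listed at 0, the size of the drop on this scale was set by the pseudocount of 0.1, and their likeness to Lamb1 depends on that choice. Nsd1 had 0.0104 to 0.0301 FPKM in the B16-F1R2 and B16-F1R2L libraries, below the pseudocount, so its drop and likeness depend largely on it too. The likeness is a description over 6 libraries, and was computed without a test.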

How the data were processed

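Polyadenylated RNA of 3 lines was read by the authors from 1 end over 50 bases after a strand-specific preparation, and the titles and cell line labels gave the lines and replicate numbers. Per the labels and the published methods, the authors aligned the reads to mm9 with TopHat 2.0.10 and Bowtie 1.0.0, allowing 2 mismatches and 20 positions per read. The deposited values are FPKM, in 1 table for all 6 libraries with replicates kept apart. The submitters' processing notes name Cuffnorm, and the gene annotation is not given in the sources used here. The authors computed differential expression with DESeq2, which was not applied here because FPKM are not counts.

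From the FPKM, log2(FPKM + 0.1) was fitted over all 6 libraries without a block by the limma functions lmFit, contrasts.fit and trended eBayes (limma 3.58.1, R version 4.3.3), with p-values adjusted by the Benjamini-Hochberg method across the 11379 genes that reached 1 FPKM in 2 or more libraries and a threshold of 0.05. With 2 libraries against 2, exact two-sided permutation of 1 gene's values bottoms out at a p of 0.333, so none was run. Read numbers are estimates from the FPKM of genes with 1 annotated transcript, and intervals that need counts were not computed. Positions came from the NCBIM37 annotation, where 20721 symbols (86.5%) matched 1 position. Stretches of 50 bases were aligned with bwa 0.7.19. The other steps used Python 3.11.15, matplotlib 3.10.9, numpy 2.4.6 and pandas 2.3.3, and the limma steps were tested on simulated data.

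Named were all 9 chains, at most 4 members of each other list with the largest log2 difference that passed the threshold and whose libraries did not overlap, in each of B16-F1R2 against B16-F1 and B16-F1R2L against B16-F1R2, and Dag1, Itga6, Itgb1, Itga3, Nid1 and Hspg2 whatever their values. The neighbours of Lamb1 and the genes with a like pattern were taken at 5 per side and 5 in all. The members and lists were chosen with earlier results of these data known. Alternatives were other pseudocounts, filters and scalings, an untrended eBayes, a fit of the 4 libraries compared alone, a replicate block, and each library left out.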

Additional observations from a re-analysis of the deposited data

How the results depend on the processing

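The comparison of B16-F1R2L with B16-F1R2 depended most on the settings. Its 2568 called genes became 1666 with no filter, 1518 with only the 4 libraries compared, and 437 to 1895 with 1 library left out, with the lowest count without B16-F1R2 replicate 1. The 2 chains called there became 0 with no filter, 0 with only the 4 libraries, 1 under quantile normalization, 1 in eBayes without a trend, 1 with the replicate block, 3 after rescaling to a sum of 1000000, where Lamb2 was added, and 0 to 1 with 1 library left out. The 5 receptors called became 3 without a trend, 2 with the 4 libraries, and 1 to 5 with 1 library left out, with 1 without B16-F1R2 replicate 1 or B16-F1R2L replicate 2. The 4 basement membrane partners called became 2 with the 4 libraries, 6 under quantile normalization, 5 after rescaling, and 2 to 3 with 1 library left out, and the 1 glycosylation gene became 2 with a pseudocount of 1, 2 at a filter of 5 FPKM, 3 after rescaling to a sum of 1000000, 2 with the replicate block, and 1 to 2 with 1 library left out. Fewer samples in the fit leave less information on the spread, and for the other settings the cause was not tested. In B16-F1R2 against B16-F1, the 9 glycosylation calls became 5 to 9 with 1 library left out, and the counts of genes, receptors and partners stayed within 1.5 times under every alternative run. In B16-F1R2L against B16-F1, the 2 chains were called under all alternatives. The log2 difference of Lamb1 kept its sign, from -4.18 to -2.86 for B16-F1R2 against B16-F1 and from -0.90 to -0.25 for B16-F1R2L against B16-F1R2, where the value nearest to 0 in each came with a pseudocount of 1. Rescaling raised the summed alpha and beta FPKM in every line and left the shares as they were. Same-numbered libraries of 2 lines correlated at 0.05, 0.08 and -0.10 in their deviations from the line means, so the numbers were not taken as pairs. With the replicate block, 6181, 2321 and 6330 genes were called in B16-F1R2 against B16-F1, B16-F1R2L against B16-F1R2 and B16-F1R2L against B16-F1. With the numbers of B16-F1 crossed in the block, an alternative chosen after seeing the data, 6561 genes were called in the last of these, against 6447 without a block. Depth limits Lama2, Lama3 and Itga3, and 2 libraries per line limit every comparison.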
